A study of Mus musculus with 6 samples.

Results

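The interleukin-1 (IL-1) system was followed through 8 genes of ligands and receptors, taken by their symbols from the 32285 genes listed in the files. Il1a and Il1b encode the agonists IL-1α and IL-1β, Il33 encodes the related alarmin IL-33, and Il1rn encodes the receptor antagonist. Il1r1 is the signalling receptor, Il1rap the accessory chain that it shares with the IL-33 receptor Il1rl1 (ST2), and Il1r2 a decoy receptor. All 8 were found in every file, each under a single identifier. They were described across cancer cells, macrophages, neutrophils, T cells and dendritic cells, and between OE-MLKL and OE-Vector tumours in each of these classes.

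IL-1α and IL-1β bind IL-1R1, which then recruits the accessory chain and signals through MyD88 and NF-κB. The antagonist occupies the same receptor without recruiting the chain, and the decoy receptor binds the agonists without signalling. IL-33 is released from the nucleus of damaged cells and acts on ST2, which is known from mast cells, type 2 lymphocytes and regulatory T cells. In pancreatic cancer, myeloid cells are a known source of IL-1β.

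The tumours were grown orthotopically in the pancreas of wild-type C57BL/6 mice from KPC cells, which come from the pancreatic tumour of a genetically engineered mouse. Before injection the cells received either the control vector (OE-Vector) or a construct for mouse Mlkl (OE-MLKL), whose product is the executioner of necroptosis. The hosts were young adults, mice of both sexes were used in the study, and tumours were harvested weeks after injection. Both groups share the KPC cells and the host strain, the immune and stromal cells are those of the host, and whether the overexpressing cells were 1 clone is not given in the sources used here. The labels name 3 samples in each group, which the study's methods describe as separate tumours. The count matrices of OE-Vector 1 and of OE-MLKL 1, 2 and 3 were analysed, and those of OE-Vector 2 and 3 were not analysed here. The labels do not name the mice, so p-values measure the spread between samples, part of which may be technical. With 1 OE-Vector library, what belongs to the group and what belongs to that tumour cannot be told apart.

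The 4 libraries held between 150591289 and 169978362 UMIs, the tags by which each captured molecule enters the counts a single time, and 74545 barcodes were kept as cells. Cells were placed in a class by marker genes, none of which is a member of the IL-1 set. The cancer cell gate holds general epithelial markers such as Krt8, Krt19 and Epcam, and no copy number step was run. Normal duct cells, which the study told from cancer cells by copy number, were thus not set apart. This gave 23068 cancer cells, 10132 macrophages, 22734 neutrophils, 3064 T cells and 408 dendritic cells, and each class held the highest summed level, among these classes, of the markers of its type that the gate did not use. Libraries shared at most 134 cell barcodes. Neutrophils were shallow, with median depths of 765 to 1423 UMIs per cell, while cancer cells had medians of 12161 to 25174. Mlkl itself was at 16.6 CPM (UMIs scaled to a total of 1000000 per class and library) in the cancer cells of the library labelled OE-Vector 1 and at 8.58, 12.9 and 19.6 CPM in the libraries labelled OE-MLKL 1, 2 and 3. It was thus not higher in the cancer cells of the libraries labelled OE-MLKL (log2 fold change −0.42 ± 0.39 SE, edgeR adjusted p = 0.993). Whether the construct carries the 3′ end that the tags count is not given in the sources used here. OE-Vector 1 and OE-MLKL 1, 2 and 3 therefore stand throughout for the libraries labelled so, and every direction between the groups rests on those labels.

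Free RNA from lysed cells adds UMIs of abundant genes to every droplet. For each gene the UMIs expected from it were computed from the barcodes of 100 UMIs or fewer, and free RNA made up 9.46% to 13.5% of the UMIs of cancer cells and 16.7% to 24.6% of those of neutrophils. A class was taken to hold a gene above free RNA where the observed UMIs were at least 1.5 times the expected ones in each of the 4 libraries, a limit set after these values were seen. In sums of this kind, fewer cells that make a transcript and less of it per cell cannot be told apart.

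The members lie on 4 chromosomes of the mouse genome (GRCm38, the sequence of the mm10 build that the study names, with GENCODE vM21 genes). Il1r2, Il1r1 and Il1rl1 lie on chromosome 1 on the plus strand, at 40074079 to 40125231, 40225080 to 40317257 and 40429570 to 40465415. Il1rn lies on chromosome 2 on the plus strand at 24336853 to 24351494. Il1a at 129299610 to 129309972 and Il1b at 129364570 to 129371139 lie close together on the minus strand of the same chromosome. Il1rap lies on chromosome 16 at 26581704 to 26730117 and Il33 on chromosome 19 at 29925114 to 29960718, both on the plus strand. Il1b is overlapped on the other strand by Il1bos, Il1a by Gm14023, Il1r2 by Gm16894 and Il1rap by Gm20319, and whether counting used strand is not given in the sources used here. Counts per gene do not tell the soluble from the membrane form of ST2, nor the secreted from the intracellular form of the antagonist.

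The sequences just upstream of the starts of Il1a, Il1b and Il1rn are shown because the results turn on these agonists and their antagonist. RefSeq on GRCm38.p6 gives 13 starts for the 8 members. The windows reach 250 bases upstream and leave out bases inside an annotated exon, and they are written 5′ to 3′ with motif matches in capitals.
Il1a, chr2:129309973-129310222, minus strand: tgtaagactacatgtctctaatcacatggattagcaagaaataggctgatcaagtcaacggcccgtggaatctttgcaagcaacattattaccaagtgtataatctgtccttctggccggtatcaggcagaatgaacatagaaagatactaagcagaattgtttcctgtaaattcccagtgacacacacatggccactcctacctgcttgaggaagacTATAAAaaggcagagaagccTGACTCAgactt
Il1b, chr2:129371140-129371389, minus strand: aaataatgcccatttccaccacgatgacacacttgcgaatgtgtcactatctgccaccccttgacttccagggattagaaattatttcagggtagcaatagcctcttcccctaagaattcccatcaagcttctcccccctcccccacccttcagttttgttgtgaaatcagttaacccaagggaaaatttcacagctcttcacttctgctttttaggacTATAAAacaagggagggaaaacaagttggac
Il1rn, first start, chr2:24336610-24336852, plus strand: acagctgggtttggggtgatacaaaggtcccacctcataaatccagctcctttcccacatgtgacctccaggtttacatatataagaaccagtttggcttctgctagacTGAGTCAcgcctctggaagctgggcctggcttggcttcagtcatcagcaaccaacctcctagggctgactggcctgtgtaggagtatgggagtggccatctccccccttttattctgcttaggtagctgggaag
Il1rn, second start, chr2:24345041-24345287, plus strand: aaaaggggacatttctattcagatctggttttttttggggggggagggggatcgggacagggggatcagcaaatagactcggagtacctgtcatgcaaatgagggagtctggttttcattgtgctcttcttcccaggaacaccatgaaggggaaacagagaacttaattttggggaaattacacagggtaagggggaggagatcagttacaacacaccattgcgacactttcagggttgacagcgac
The letters of 4 motifs were searched on both strands: TATAAA, the AP-1 letters TGANTCA, the C/EBP letters TTGCNNAA and the NF-κB motif. Il1a and Il1b each held TATAAA, with 26 and 25 bases between it and the start. Of the 32851 windows of all starts, taken at the full 250 bases, 12.4% held TATAAA, 6.75% the AP-1 letters, 9.56% the C/EBP letters and 4.11% the NF-κB motif. The AP-1 letters stood in the window of Il1a, 5 bases before the start, and in that of the first start of Il1rn, 134 bases before it. The windows of the members were 142 to 250 bases long once exon bases were left out, and the shorter ones can hold fewer matches. Over the 13 starts, TATAAA was found at 4, the AP-1 letters at 2 and the C/EBP letters at 3. The second start of Il1rn held none of these letters, and no member start held the NF-κB motif, which says only that the letters are not in these windows.

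Il1b was the most abundant member and lay mainly in neutrophils. Its level in neutrophils was 11418 CPM in OE-Vector 1 and 8187, 7626 and 11607 CPM in OE-MLKL 1, 2 and 3. OE-Vector 1 was inside the spread of the other three, and OE-MLKL 3 was the highest. Observed UMIs were 25.2 to 77.3 times those expected from free RNA. Macrophages held 751 CPM in OE-Vector 1 and 443, 418 and 719 CPM in OE-MLKL 1 to 3, which was 2.51 to 5.62 times free RNA. Dendritic cells held 667 CPM and 123, 423 and 531 CPM. Cancer cells gave 64.9 to 196 CPM, but that was 0.772 to 1.14 times what free RNA would give, so their Il1b UMIs were at the level of free RNA. T cells were at 1.49 to 2.86 times free RNA, and exceeded cancer cells by 1.10 ± 0.20 on the log2 scale (edgeR adjusted p = 6.53e-05, 65.3% of genes passing).

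**Figure D1:**
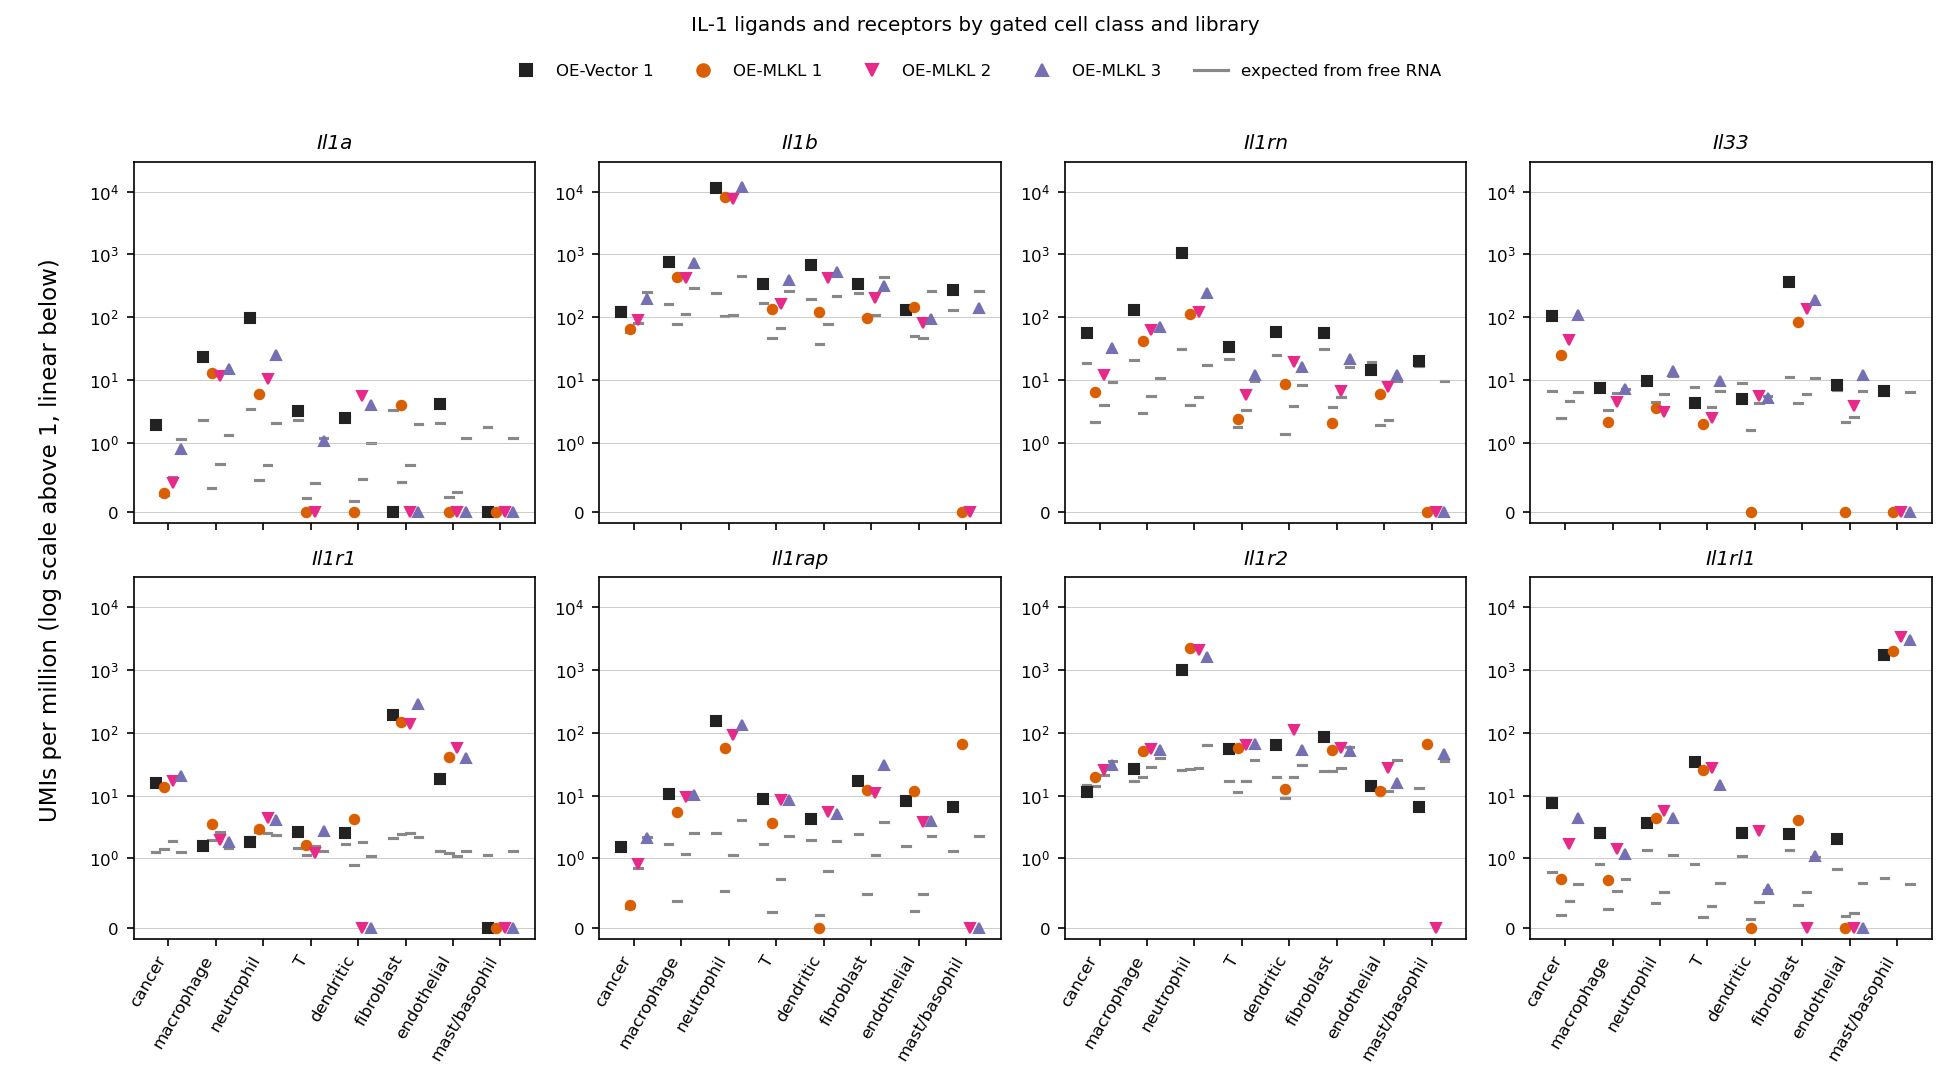
Level of each gene (CPM, logarithmic above 1 and linear below) in 8 gated classes, 1 point per library, with grey bars at the level expected from free RNA. Il1b points of neutrophils sit between 7626 and 11607 CPM, while those of cancer cells sit on their grey bars.

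Between classes, Il1b was 4.25 ± 0.22 (SE) higher on the log2 scale in neutrophils than in macrophages (edgeR with library as a block, n = 4 libraries, adjusted p = 3.87e-12). In that contrast 69.2% of all genes tested passed, so a pass says little by itself. Macrophages exceeded dendritic cells by 0.53 ± 0.20 (adjusted p = 0.0493, 37.2% of genes passing), and with library size alone as the scaling the adjusted p was 0.1. Of the classes, neutrophils held the largest share of the Il1b UMIs in each library, at 69.2% for OE-Vector 1 and 54.6%, 48.9% and 68.7% for OE-MLKL 1 to 3. Cells that no gate took held 8.1% in OE-Vector 1 and 5.6% to 22.3% in the OE-MLKL libraries.

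Il1a, the agonist that is active before processing, was held above free RNA by neutrophils and macrophages. In neutrophils it was at 96.0 CPM in OE-Vector 1 and at 5.97, 10.5 and 24.8 CPM in OE-MLKL 1 to 3, from 855, 22, 54 and 272 UMIs. In macrophages it was at 23.0 CPM in OE-Vector 1 and at 12.9, 11.6 and 14.99 CPM in the OE-MLKL libraries. Mean levels over the 4 libraries were 34.3 ± 41.9 (SD) CPM in neutrophils and 15.6 ± 5.11 CPM in macrophages, and these neighbours in the order did not differ past the threshold (log2 difference 0.73 ± 0.35, edgeR adjusted p = 0.0664). Cancer cells, at 0.276 to 1.91 CPM, were at 0.789 to 1.1 times free RNA. Of all Il1a UMIs, neutrophils held 47.4% for OE-Vector 1 and 8.0%, 14.96% and 32.1% for OE-MLKL 1 to 3, while macrophages held 23.0% and then 54.9%, 41.8% and 40.4%. The larger share thus lay with neutrophils in OE-Vector 1 and with macrophages in each OE-MLKL library. Such shares depend on how many UMIs a class gave as well as on its level of the gene. Neutrophils of OE-MLKL 3 had the higher level, 24.8 CPM beside 14.99 CPM, but gave 10969704 UMIs beside 22876727 from macrophages. For OE-MLKL 1 and 2 the level, like the share, was higher in macrophages.

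Il1rn, the antagonist, was held above free RNA by neutrophils, macrophages, cancer cells and dendritic cells. Neutrophils were at 1036 CPM in OE-Vector 1 and at 113, 121 and 245 CPM in OE-MLKL 1 to 3. Macrophages were at 129 CPM and at 41.1, 62.9 and 69.1 CPM. Cancer cells were at 56.8 CPM and at 6.52, 11.8 and 32.2 CPM, which was 2.94 to 3.41 times free RNA in each library. OE-Vector 1 was the highest library in each of these 3 classes, and OE-MLKL 3 the highest of the OE-MLKL libraries. Dendritic cells were at 58.3 CPM in OE-Vector 1, where 70 UMIs were counted, and at 8.47, 19.1 and 16.4 CPM from 2, 7 and 29 UMIs. The level of neutrophils exceeded that of macrophages by 1.96 ± 0.26 on the log2 scale (edgeR adjusted p = 1.42e-06). That of macrophages exceeded that of cancer cells by 2.07 ± 0.26 (adjusted p = 4.71e-07), where 68.6% of genes passed. Cancer and dendritic cells, where 55.7% of genes passed, did not differ past the threshold (log2 difference −0.01 ± 0.36, adjusted p = 0.981). Of all Il1rn UMIs, neutrophils held 46.5% in OE-Vector 1 and 16.8% to 33.8% in the OE-MLKL libraries. Cancer cells held 24.7% in OE-Vector 1 and 34.9% to 38.2% in the OE-MLKL libraries. The largest share of any class thus lay with neutrophils in OE-Vector 1 and with cancer cells in each OE-MLKL library. In OE-MLKL 3 it was 34.9% for cancer cells beside 33.8% for neutrophils. Free RNA was not subtracted from these shares. Neutrophils stood farther above it than cancer cells, at 14.3 to 32.9 times, so the order in OE-MLKL 3 need not hold without it. Cancer cells were 19.8% of the cells of OE-Vector 1 and 40.7%, 36.8% and 22.9% of those of OE-MLKL 1 to 3. The size of a class thus enters its share of the Il1rn UMIs. The level of Il1rn was higher in neutrophils than in cancer cells in each library.

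Il33 lay mainly in the gated cancer cells and was also found in fibroblasts. Cancer cells held it at 106 CPM in OE-Vector 1 and at 24.9, 43.9 and 109 CPM in OE-MLKL 1 to 3, so OE-Vector 1 stood beside OE-MLKL 3 and above the other two. Cancer cells carried 85.6% to 92.0% of its UMIs. Fibroblasts, of which 36 to 81 were gated per library, had 360 CPM in OE-Vector 1 and 83.1, 137 and 185 CPM in OE-MLKL 1 to 3. Their gate includes Upk3b beside Pdgfra, Lum, Dpt, Pi16 and Clec3b, so it can also take mesothelial-like cells. In neutrophils, macrophages and T cells it was at 0.515 to 1.43 times free RNA.

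**Figure D2:**
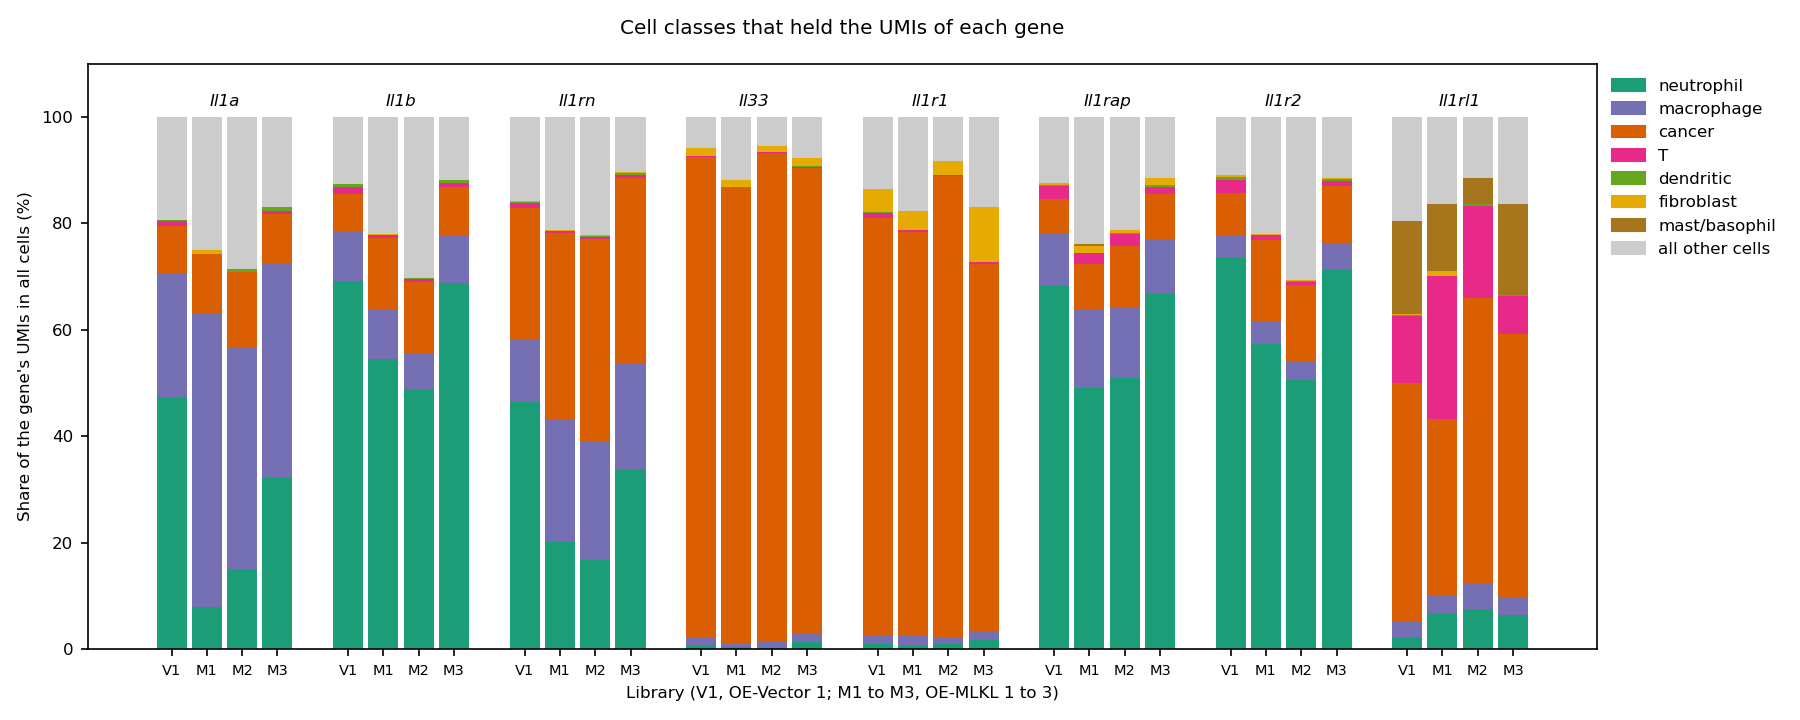
Share (%) of all cell UMIs of each gene that lay in each class, 1 bar per library (V1 is OE-Vector 1, M1 to M3 are OE-MLKL 1 to 3). Neutrophils hold 48.9% to 69.2% of Il1b, and cancer cells hold 85.6% to 92.0% of Il33.

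The signalling receptor Il1r1 was held above free RNA by cancer cells, fibroblasts and endothelial cells. In cancer cells it was at 16.0 CPM in OE-Vector 1 and at 13.6, 16.9 and 20.5 CPM in the OE-MLKL libraries, which overlapped. Fibroblasts had 191 CPM and 148, 139 and 289 CPM, from 63 to 264 UMIs. Endothelial cells, 24 to 43 per library, had 18.4 to 57.9 CPM from 7 to 15 UMIs. Neutrophils, at 1.8 to 4.47 CPM, were at 0.829 to 1.76 times free RNA. Cancer cells held 69.0% to 86.9% of the Il1r1 UMIs.

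The decoy receptor Il1r2 and the accessory chain Il1rap were highest in neutrophils among the 5 classes. Il1r2 was at 1015 CPM in the neutrophils of OE-Vector 1 and at 2251, 2096 and 1584 CPM in OE-MLKL 1 to 3. OE-Vector 1 was below each OE-MLKL library. The neutrophil level was 4.92 ± 0.29 above that of dendritic cells on the log2 scale (edgeR adjusted p = 3.48e-11, 58.9% of genes passing), and dendritic cells, T cells and macrophages, at means of 60.6, 60.3 and 47.0 CPM, did not differ between neighbours past the threshold (adjusted p = 0.574 and 0.443, with 34.9% and 60.3% of genes passing). Il1rap was at 153 CPM in the neutrophils of OE-Vector 1 and at 57.3, 93.6 and 135 CPM in OE-MLKL 1 to 3. Its mean was 8.94 CPM in macrophages and 7.39 CPM in T cells, a difference of 0.57 ± 0.24 on the log2 scale (adjusted p = 0.0481, 60.3% of genes passing) that missed the threshold with library size alone (adjusted p = 0.245). In cancer cells, which held the signalling receptor, Il1rap was at 0.966 to 1.16 times free RNA and Il1r2 at 0.776 to 1.39 times.

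Il1rl1 was densest in the few cells of the mast cell or basophil gate, with 1714 CPM in OE-Vector 1 and 1987, 3402 and 3041 CPM in OE-MLKL 1 to 3. These rest on 40, 9, 2 and 16 cells, which still held 4.9% to 17.6% of the Il1rl1 UMIs of a library. Of the classes, cancer cells held the largest share in each library, at 33.2% to 53.6%, and T cells held 7.1% to 26.9%. In cancer cells Il1rl1 was at 3.64 to 9.38 times free RNA. Among the 5 main classes it was highest in T cells, at 34.8 CPM in OE-Vector 1 and 25.7, 27.6 and 14.9 CPM in OE-MLKL 1 to 3, and this was 22.9 to 163 times free RNA. T cells exceeded neutrophils by 2.19 ± 0.45 on the log2 scale (edgeR adjusted p = 0.000247, 72.5% of genes passing), and neutrophils and cancer cells did not differ past the threshold (0.93 ± 0.43, adjusted p = 0.0557). T cells with a UMI of Foxp3, the regulatory T cell factor, had 84.6, 107.9, 66.6 and 26.0 CPM of Il1rl1 in OE-Vector 1 and OE-MLKL 1 to 3, against 30.8, 23.5, 25.3 and 14.3 CPM in the other T cells. The Foxp3 cells were higher in 4 of 4 libraries, but they numbered 21 to 70 per library and gave 5 to 33 UMIs of Il1rl1. They held 9.09% to 17.9% of the Il1rl1 UMIs of T cells, so most came from T cells without a Foxp3 UMI.

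Whether the libraries labelled OE-MLKL differed from OE-Vector 1 was tested in each class by edgeR on the sums per library. No member passed the adjusted threshold of 0.05 in any class. Of all genes tested, 0.00568% passed in cancer cells, 0.00718% in macrophages, 0% in neutrophils, 0.00859% in T cells and 0.0237% in dendritic cells. At an unadjusted p under 0.05 there were 2 members of 8 in neutrophils, where 8.41% of all 12741 genes passed, 3 of 8 in macrophages (5.98%), 4 of 8 in cancer cells (4.75%), 1 of 6 in T cells (4.72%) and 1 of 3 in dendritic cells (3.9%). Those lower in the OE-MLKL libraries were 2 in neutrophils (5.22% of all genes), 2 in macrophages (3.3%), 3 in cancer cells (3.1%), 1 in T cells (2.43%) and 1 in dendritic cells (2.03%). With DESeq2 in place of edgeR 2 members passed in neutrophils, namely Il1rn and Il1a, beside 0.79% of all genes that DESeq2 gave an adjusted p, and none in the other classes. With no filter on low counts the same 2 members passed in neutrophils (adjusted p = 0.00485 for Il1rn and 0.00766 for Il1a, 0.301% of all genes passing) and Il1rn passed in T cells (3.43e-05, 0.735% of genes passing), where it was at 1.248 to 1.757 times free RNA. With limma-voom none passed.

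The 2 members with unadjusted p under 0.05 in neutrophils were Il1a and Il1rn. Il1a had a log2 fold change of −2.99 ± 0.58 (adjusted p = 0.468 by edgeR), and Il1rn one of −2.92 ± 0.44 (adjusted p = 0.347). DESeq2 gave adjusted p = 0.000988 for Il1a and 4.75e-06 for Il1rn. Without OE-MLKL 3 edgeR gave 0.000301 and 0.00028, but 12.3% of all genes passed there, so a pass in that fit says less. Without OE-MLKL 1 it gave 0.0111 and 0.0259, with 0.284% of genes passing, and without OE-MLKL 2 both missed the threshold and 0% of genes passed. Il1r2 had 0.77 ± 0.44 (adjusted p = 0.69), Il1b −0.54 ± 0.43 (0.769) and Il1rap −0.90 ± 0.43 (0.618), and Il1rap also passed in the fit without OE-MLKL 3 (−1.19, adjusted p = 0.0308). So did Il33 (−1.72, adjusted p = 0.0238), which in neutrophils was at the level of free RNA. OE-Vector 1 lay above all 3 OE-MLKL libraries for 3 of the 8 members (Il1a, Il1rn and Il1rap), where 16.9% of all genes did so, and below all 3 for Il1r1, Il1r2 and Il1rl1, where 40.4% did.

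Single neutrophils were also compared after thinning each to 500 UMIs, so that depth does not set the share of cells with a UMI. No gated neutrophil was shallower. Il1rn was found in 29.4% of the neutrophils of OE-Vector 1 (95% exact binomial interval 28.3% to 30.5%, counting error only) and in 4.43%, 5.21% and 10.3% of those of OE-MLKL 1 to 3. Il1rn UMIs in neutrophils were 14.3 to 32.9 times those expected from free RNA in each library. Il1a was found in 3.52% and in 0.194%, 0.35% and 1.15%. Il1r2 went the other way, with 36.6% in OE-Vector 1 and 60.3%, 59.5% and 49.4% in the OE-MLKL libraries. Il1b was found in 96.1% and in 88.5%, 89.3% and 97.6%, which overlapped. An exact permutation test of 1 against 3 libraries cannot give a p below 0.25, and Il1rn, Il1a and Il1r2 each gave 0.25. Without thinning the shares were 49.8%, 7.84%, 8.91% and 27.5% for Il1rn, 8.09%, 0.387%, 0.786% and 3.36% for Il1a, and 63.6%, 74.0%, 74.0% and 80.7% for Il1r2. As background, cancer cells thinned alike, in which these genes were at the level of free RNA, had a UMI of Il1r2 in 0.888% to 1.66% of cells, of Il1a in at most 0.0248% and of Il1b in 3.26% to 10.3%. For Il1rn, which cancer cells held above free RNA, thinned T cells served instead, and a UMI was found in 1.37% of those of OE-Vector 1 against 0%, 0.309% and 0.358% of those of OE-MLKL 1 to 3. For the 0 of 556 cells of OE-MLKL 1, the 95% exact binomial interval reached 0.661%. Before thinning, the median depths of T cells were 2713 to 3716 UMIs.

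**Figure D3:**
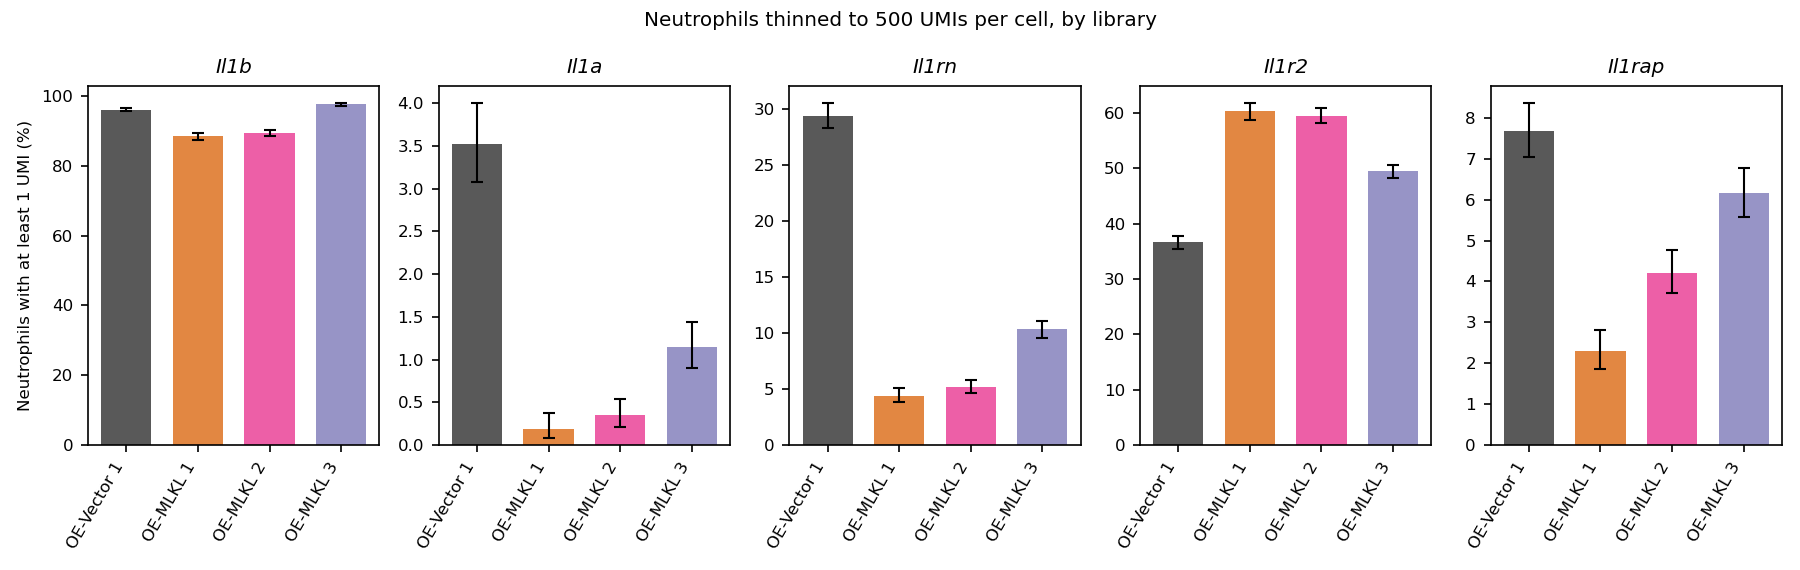
Share (%) of neutrophils with at least 1 UMI of each gene after thinning to 500 UMIs per cell, 1 bar per library with its 95% exact binomial interval and a scale of its own for each gene. OE-Vector 1 has the tallest bar for Il1rn (29.4%) and Il1a (3.52%) and the shortest for Il1r2 (36.6%).

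Per 100 UMIs of Il1b, the neutrophils of OE-Vector 1 held 9.07 UMIs of Il1rn, and those of OE-MLKL 1 to 3 held 1.39, 1.59 and 2.11. The Il1a UMIs per 100 of Il1b were 0.841 in OE-Vector 1 and 0.073, 0.137 and 0.214 in the OE-MLKL libraries. In macrophages the antagonist stood at 17.1 per 100 in OE-Vector 1 and at 9.28, 15.04 and 9.61, and Il1a at 3.06 and at 2.91, 2.78 and 2.08. The neutrophils differed in other ways between these libraries. The summed level of 5 monocyte markers in them (Ly6c2, Ccr2, Plac8, Chil3 and Vcan), some of which young neutrophils also express, was 487 CPM in OE-Vector 1 and 2856 to 8331 CPM in the OE-MLKL libraries, and its part in the differences of Il1rn, Il1a and Il1r2 was not tested. The 7 macrophage markers of the gate summed to 549.6 CPM in the neutrophils of OE-Vector 1 and to 290.2 to 851 CPM in the others, which overlapped. The 5 further macrophage markers that the gate did not use were lower in OE-Vector 1, at 1070 CPM against 1501 to 1880 CPM. Some lists of other cells were higher in OE-Vector 1 than in every OE-MLKL library. These included 6 further dendritic cell markers at 119.7 CPM against 19.5 to 68.8 CPM and the 6 gate markers of T cells at 39.7 against 15.9 to 34.5 CPM. So were 5 of natural killer cells at 32.0 against 1.09 to 21.5 CPM, 3 of which were at 0 in OE-MLKL 1. Gate markers of B cells (11.8 against 6.24 to 7.48 CPM), endothelial cells (19.8 against 6.80 to 11.7 CPM) and mast cells or basophils (4.72 against 0.271 to 1.09 CPM) were higher too. The 7 further cancer cell markers were lower, at 59.7 against 76.3 to 90.2 CPM. The gate markers of cancer cells, fibroblasts and acinar cells overlapped. The 9 gate markers of dendritic cells (90.1 against 62.7 to 110.1 CPM) and the 6 further T cell markers (12.9 against 3.3 to 14.8 CPM) overlapped. The part of these lists in the same differences was not tested either.

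In macrophages Il1rn had a log2 fold change of −1.28 ± 0.31 (adjusted p = 0.647 by edgeR), and without OE-MLKL 3 it passed (−1.39, adjusted p = 0.006), as did 4.36% of all genes. The 7 neutrophil gate markers in macrophages summed to 389 CPM in OE-Vector 1 and to 253 to 382 CPM in the others, while the 5 further neutrophil markers overlapped (859 CPM against 627 to 1313 CPM). Endothelial (40.9 against 4.78 to 23.3 CPM), acinar (92.0 against 35.3 to 53.2 CPM) and natural killer cell markers (23.0 against 2.62 to 18.5 CPM) were higher in OE-Vector 1. The 5 further macrophage markers (18703 against 22192.7 to 30030.5 CPM) and the monocyte markers (312 against 330 to 867 CPM) were lower. The part of these lists in the Il1rn difference was not tested. Il1a had −0.92 ± 0.27 (adjusted p = 0.746) and Il1b −0.64 ± 0.38 (0.839). OE-Vector 1 lay above all OE-MLKL libraries for 6 of the 8 members, where 17.5% of all genes did so, and below all for the other two, Il1r1 and Il1r2, where 36.5% did. Of those 6, Il33 was at 0.635 to 1 times free RNA. Il1r2 in macrophages had 0.88 ± 0.27 (adjusted p = 0.771) at 1.33 to 2.66 times free RNA. The median log2 fold change of the 8 members was −0.72, and that of all genes tested 0.04.

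In cancer cells Il1rn had −1.95 ± 0.64 (adjusted p = 0.993), and without OE-MLKL 3 it passed (−2.65, adjusted p = 0.042), as did 0.822% of all genes. The free RNA of the libraries held Il1rn at 186 CPM in OE-Vector 1 and at 22.7, 32.0 and 69.7 CPM in OE-MLKL 1 to 3, so it was highest where cancer cells were highest. Monocyte markers in cancer cells summed to 704 CPM in OE-Vector 1 and to 325 to 440.0 CPM in the OE-MLKL libraries, those of T cells to 28.9 and to 7.4 to 21.3 CPM, and those of natural killer cells to 26.2 and to 5.19 to 15.8 CPM. OE-Vector 1 was above the others for these 3 lists. It was also above them for markers of B cells (7.25 against 2.83 to 4.75 CPM), endothelial cells (11.1 against 3.93 to 6.42 CPM) and fibroblasts (49.3 against 37.5 to 47.2 CPM). It was below them for the gate markers of dendritic cells (58.1 against 58.8 to 63.7 CPM). The gate markers of neutrophils (109 CPM against 74.3 to 197 CPM) and of macrophages (242 against 154 to 389 CPM) overlapped. The part of these cells in the difference of Il1rn was not tested. Il33 had −1.02 ± 0.61 (adjusted p = 0.993) and Il1r1 −0.04 ± 0.29 (0.999). Il1rl1 was at 7.54 CPM in the cancer cells of OE-Vector 1 and at 0.704, 1.72 and 4.42 CPM in OE-MLKL 1 to 3, with −1.92 ± 0.77 (adjusted p = 0.993). The summed mast cell and basophil markers in cancer cells were 2.22 CPM in OE-Vector 1 and 0.24 to 0.463 CPM in the others, and their part in this was not tested. Il1r2, at the level of free RNA, and Il1a, likewise, made up the other members with an unadjusted p under 0.05, so that only Il1rn and Il1rl1 among the 4 were above free RNA. OE-Vector 1 lay above all OE-MLKL libraries for 3 members, where 17.9% of all genes did so, and below all for 1, where 32.8% did.

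In T cells Il1rl1 had −0.64 ± 0.42 (adjusted p = 0.9996). The T cell value of Il1rn, −2.31 ± 0.50 (adjusted p = 0.367), came from 175, 6, 14 and 45 UMIs at 1.248 to 1.757 times free RNA, and it passed without OE-MLKL 1, 2 or 3 (adjusted p = 0.00346, 0.0291 and 1.03e-12), where 0.456%, 0.277% and 7.96% of all genes passed. Il1b in T cells, at 1.49 to 2.86 times free RNA, also passed in the last of these fits (−1.14, adjusted p = 9.02e-05). OE-Vector 1 lay above all OE-MLKL libraries for 3 of 6 members, where 18% of all genes did so, and below all for 1 (Il1r2), where 25.4% did. Mast cell and basophil markers in the gated T cells summed to 9.46 CPM in OE-Vector 1 and to 1.65 to 2.98 CPM in the OE-MLKL libraries. The 5 natural killer cell markers, of which T cells can also express Gzma and Eomes, summed in them to 4027 CPM and to 476 to 1834 CPM. Monocyte (963 against 751 to 890 CPM), B cell (17.6 against 5.22 to 12.7 CPM) and fibroblast markers (11.7 against 6.03 to 11.1 CPM) were also higher in OE-Vector 1. So were the T cell gate markers (4940 against 3864 to 4207 CPM). Gate markers of dendritic cells were lower (35.9 against 43.0 to 62.3 CPM). Those of neutrophils (254 against 127 to 350 CPM) and macrophages (227 against 121 to 424 CPM) overlapped. The part of these lists in the T cell differences was not tested. In dendritic cells Il1rn had −1.95 ± 0.47 (adjusted p = 0.485) and passed without OE-MLKL 3 (0.0342), and Il1b had −0.92 ± 0.51 (adjusted p = 0.9998) and passed without OE-MLKL 3 (−1.24, adjusted p = 0.018), where 2.45% of all genes passed. The 5 further macrophage markers in dendritic cells summed to 980 CPM in OE-Vector 1 and to 296 to 655 CPM in the OE-MLKL libraries, so OE-Vector 1 was the highest, while the 7 of the gate overlapped (349.9 CPM against 157 to 355 CPM). Their part in this was not tested. OE-Vector 1 lay above all OE-MLKL libraries for 2 of 3 members, where 19.8% of all genes did so.

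**Figure D4:**
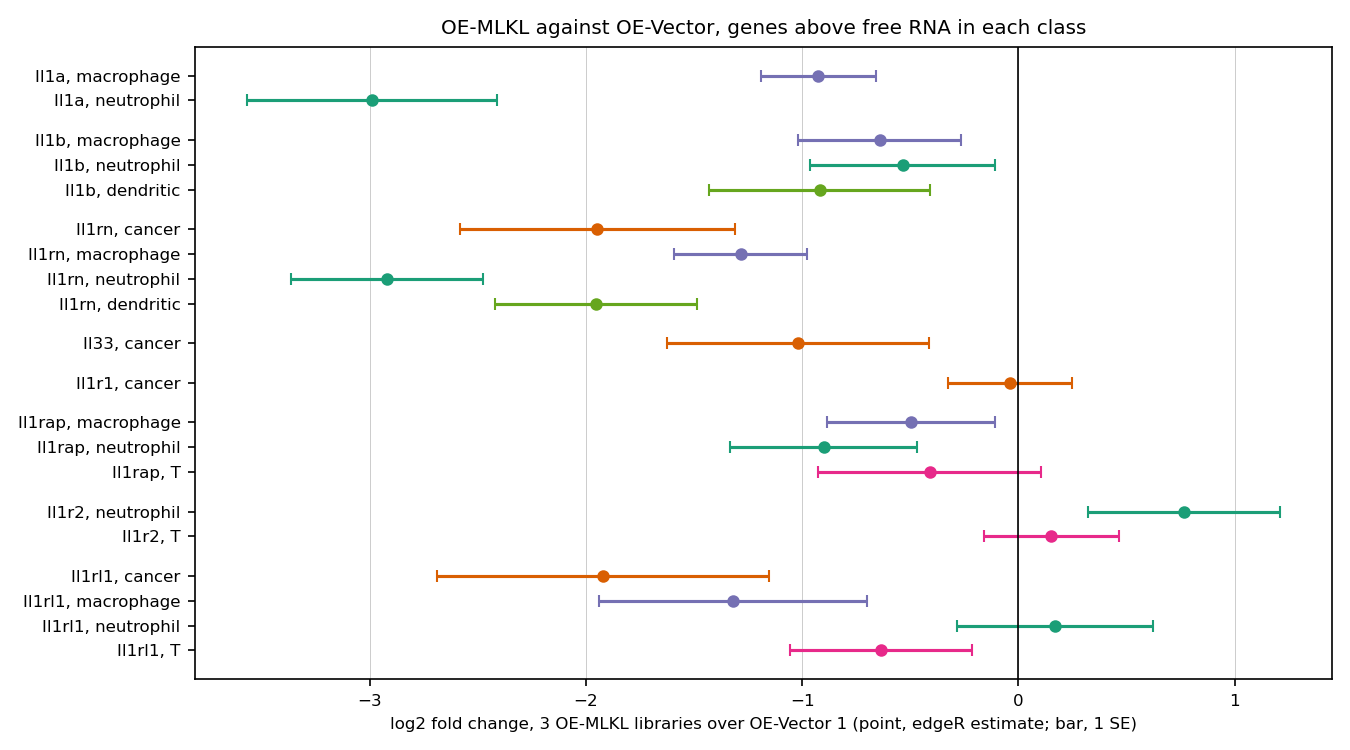
Log2 fold change of the OE-MLKL libraries over OE-Vector 1 by gene and class (edgeR estimate, bar 1 SE), for classes that hold the gene above free RNA. Il1a and Il1rn in neutrophils lie farthest left, at −2.99 and −2.92, and Il1r2 in neutrophils lies right of 0 at 0.77.

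The size of the difference between the groups was also compared between classes. The macrophage value exceeded the neutrophil value by 1.74 ± 0.43 on the log2 scale for Il1rn (edgeR interaction, adjusted p = 0.214) and by 2.23 ± 0.50 for Il1a (adjusted p = 0.164). No member passed here, and 0.0365% of all genes did. For cancer cells minus neutrophils and cancer cells minus macrophages, where 0.219% and 0.0438% of genes passed, no member passed either. A p that misses the threshold in this design does not show that the classes responded alike.

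Other genes of the pathway were described from lists. Of 30 genes of the IL-1 family and its signalling, 25 were tested in neutrophils and none passed. An unadjusted p under 0.05 was found for 4, all lower in the OE-MLKL libraries. Of all genes, 8.41% had such a p, and 5.22% had one and were lower. The median log2 fold change was −0.25 beside 0.04 for all genes. Il36g, an epithelial and myeloid agonist of the same family, was at 374 CPM in the neutrophils of OE-Vector 1 and at 35.6, 44.9 and 126 CPM in OE-MLKL 1 to 3 (−2.67 ± 0.60, edgeR adjusted p = 0.496). Il18, the agonist processed by caspase-1, was at 19.2 CPM and at 1.63, 3.88 and 8.93 CPM (−2.13 ± 0.64, adjusted p = 0.535), and Irak2, a kinase of the receptor complex, at 135 CPM and at 61.1, 77.5 and 101 CPM. OE-Vector 1 was above each OE-MLKL library for all of these, and for 16.9% of all genes. They were picked by smallest p in this same comparison, so this adds no support. In cancer cells, macrophages and dendritic cells the medians were 0.13, 0.12 and 0.11, with 1 of 25, 2 of 25 and 2 of 20 genes tested at an unadjusted p under 0.05. Of all genes, 4.75%, 5.98% and 3.9% had such a p. In T cells, where 4.72% of all genes had such a p, the median was −0.12 and 16 of 24 genes tested lay below 0. The 2 genes of the list at an unadjusted p under 0.05 lay above 0. These were the subunits of the IL-18 receptor, with Il18rap at 81.5 CPM in OE-Vector 1 and at 200.2, 196 and 155 CPM in OE-MLKL 1 to 3 (1.16 ± 0.41, edgeR adjusted p = 0.875) and Il18r1 at 99.1 CPM in OE-Vector 1 and at 282, 183 and 198 CPM in OE-MLKL 1 to 3 (1.14 ± 0.44, adjusted p = 0.918).

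Of 17 genes of processing and release, 14 were tested in neutrophils, none passed and 2 had an unadjusted p under 0.05, beside 8.41% of all genes. Ninj1, which encodes the protein that tears the plasma membrane in lytic death, was at 611 CPM in the neutrophils of OE-Vector 1 and at 197, 271 and 249 CPM in OE-MLKL 1 to 3 (−1.56 ± 0.33, edgeR adjusted p = 0.468). Casp4, the murine caspase-11, was at 82.9 CPM and at 38.8, 29.9 and 63.4 CPM. Pycard, the inflammasome adaptor, lay the other way at 69.1 CPM and at 280, 366 and 107 CPM (1.68 ± 0.75, adjusted p = 0.597). In cancer cells Casp1, which encodes the protease that matures IL-1β, was at 39.1 CPM and at 21.1, 19.5 and 27.6 CPM (−0.91 ± 0.25, adjusted p = 0.934), one of 2 genes of the list at an unadjusted p under 0.05 there. In cancer cells 16 genes of the list were tested, and 4.75% of all genes had such a p. None of the list had such a p in macrophages or dendritic cells. In T cells 2 of 13 tested did, beside 4.72% of all genes. The medians of the list were −0.31 in neutrophils and T cells, −0.36 in cancer cells, −0.08 in macrophages and −0.06 in dendritic cells.

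Of 22 genes known to be induced by IL-1, none passed in any class. In neutrophils 16 of 19 tested lay below 0 and the median was −0.87 beside 0.04 for all genes. Beside 8.41% of all genes, 4 of the 19 had an unadjusted p under 0.05. Mmp9 was among these 4 (1627 CPM in OE-Vector 1 and 643, 800 and 1108 CPM in OE-MLKL 1 to 3), and it is also a marker of the neutrophil gate. Cxcl3, a neutrophil chemokine, was at 434 CPM in the neutrophils of OE-Vector 1 and at 88.0, 26.8 and 79.3 CPM in OE-MLKL 1 to 3 (−2.95 ± 0.57, edgeR adjusted p = 0.468). In macrophages the median was 0.28, 6 of 19 genes tested lay below 0 and, beside 5.98% of all genes, 3 had an unadjusted p under 0.05. Of these, Tnfaip3, which encodes the NF-κB inhibitor A20, was at 62.7 CPM in OE-Vector 1 and at 139, 101 and 139 CPM in OE-MLKL 1 to 3 (0.89 ± 0.33, edgeR adjusted p = 0.800). Mmp13, a collagenase, was at 129 CPM in OE-Vector 1 and at 4.61, 5.93 and 13.2 CPM (−4.14 ± 0.46, edgeR adjusted p = 0.137), while Cxcl3 was at 53.8 CPM and at 13.7, 9.32 and 11.8 CPM (−2.33 ± 0.29, adjusted p = 0.189). Mmp13 was at 2.74 CPM in the cancer cells of OE-Vector 1 and at 0.125, 0.142 and 0.289 CPM in the OE-MLKL libraries (−4.04 ± 0.59, adjusted p = 0.462). These levels were far below those of macrophages in each library. Observed UMIs were set beside those expected from free RNA for the members only, so the part of free RNA in these low levels was not tested. Medians in cancer, T and dendritic cells were −0.22, −0.07 and 0.03, with 6 of 22, 5 of 16 and 2 of 13 genes tested at an unadjusted p under 0.05. Of all genes, 4.75%, 4.72% and 3.9% had such a p. Of 14 genes of dissociation stress, which tissue digestion is known to induce, none passed. Their median was 0.60 in cancer cells, where 3 of 14 lay below 0 and none had an unadjusted p under 0.05. It was 0.43 in macrophages, where 5.98% of all genes and 7 of the 14 had one. Of these 7, 4 were higher and 3 lower in the OE-MLKL libraries. Hspa1b, a heat shock chaperone, had −2.55 ± 0.46 (edgeR adjusted p = 0.472). Among the higher ones, Dusp1 had 1.32 ± 0.40 and Jun 1.02 ± 0.33. In neutrophils, T cells and dendritic cells the medians were −0.43, −0.29 and 0.05. An unadjusted p under 0.05 was found for 2 of 14, 2 of 14 and 2 of 12 tested, beside 8.41%, 4.72% and 3.9% of all genes. Their part in the differences of the members was not tested.

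Of 10 genes of type 2 immunity and of innate lymphoid cells, the known responders to IL-33, all were tested in T cells, and 1 passed, beside 0.00859% of all genes. Il13, the type 2 cytokine, was at 38.4 CPM in the T cells of OE-Vector 1 and at 1.61, 2.47 and 3.52 CPM in OE-MLKL 1 to 3, so OE-Vector 1 stood far above the others. It fell by 3.92 ± 0.39 on the log2 scale (edgeR adjusted p = 0.0158). Its adjusted p was 0.0756 with limma-voom and under the threshold in the other 12 alternatives, which include leaving out each OE-MLKL library. OE-Vector 1, the only library of its group, could not be left out. The value of OE-Vector 1 rested on 203 UMIs in 28 of 1024 T cells, and the OE-MLKL libraries had 2, 6 and 6 cells with a UMI. Il5, which is often made by the same cells, was at 7.95 CPM in OE-Vector 1 and at 0, 0 and 0.813 CPM (adjusted p = 0.404), and Klrg1 at 23.6 CPM and at 6.43, 11.5 and 11.6 CPM (adjusted p = 0.731). The median of the list in T cells was −1.35 beside 0.02 for all genes, with 5 of 10 at an unadjusted p under 0.05, beside 4.72% of all genes. Markers of natural killer cells in the gated T cells summed to 4027 CPM in OE-Vector 1 and to 476 to 1834 CPM in the OE-MLKL libraries. Some of these markers can also be expressed by T cells. Those of mast cells and basophils summed to 9.46 CPM in OE-Vector 1 and to 1.65 to 2.98 CPM in the OE-MLKL libraries. The part of these lists in the Il13 difference was not tested.

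Over the 20 sums of class and library, the genes whose log2(CPM + 1) followed each member most closely were compared among 10808 genes by Pearson correlation, as a description in which sums of a library share depth and free RNA. Il1b went with Cers6, Csf3r and Ccrl2 (r = 0.975, 0.972 and 0.972), Il1rap with Treml2, Csf3r and Hcar2 (0.976, 0.976 and 0.961) and Il1r2 with S100a8, 5430425K12Rik and S100a9 (0.976, 0.976 and 0.97), and each of these was highest in neutrophils. Il1rn went with Litaf, Oas2 and Cd300lb (0.931, 0.927 and 0.926), also highest in neutrophils, and Il1a with Clec4n, Emilin2 and Sdcbp (0.947, 0.94 and 0.933). Il33 went with Me1, Ddr2 and E330013P04Rik (0.977, 0.975 and 0.961) and Il1r1 with Pcdh19, Cdc42bpa and D630045J12Rik (0.949, 0.943 and 0.94), which were highest in cancer cells. Il1rl1 went with Cd3d, Gimap9 and Hlf (0.917, 0.906 and 0.903), which were highest in T cells. Csf3r and Cd3d are themselves among the markers that chose the neutrophils and T cells.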

How the data were processed

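Single-cell 3′ RNA libraries of 4 tumours were analysed. The deposited matrices of the authors hold UMI counts as whole numbers for every gene and droplet, before any filter or scaling. The submitters' processing notes name Cell Ranger 2.1.1 and the mm10 build, the study's methods name another release of that tool and the file headers a further one, so the release, and whether intronic reads were counted, cannot be settled. Unspliced reads would add to long genes. Barcodes with at least 500 UMIs, more than 200 genes, under 10% mitochondrial and under 5% haemoglobin UMIs were kept, and no doublet caller was run. Cells that passed the gates of more than 1 class were set aside, with exceptions. Cells passing both the neutrophil and the monocyte gate were kept as neutrophils. Those passing both the T cell and the natural killer cell gate were kept as T cells.

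Cells were gated by marker genes (at least 3 UMIs from at least 2 markers, and a minimum per 10000 UMIs). These minimums were set after the marker distributions were seen, without reading the values of the IL-1 genes. The members and gene lists were chosen with earlier results of these data known. UMIs were summed per library and class and tested with edgeR 4.0.16 (quasi-likelihood, TMM, filterByExpr, Benjamini-Hochberg at 0.05, R 4.3.3). With 1 library against 3, the 2 residual degrees of freedom come from OE-MLKL, and OE-Vector 1 is assumed to vary alike. In place of the study's test over single cells, sums were used because cells of a tumour are not replicates. Classes were compared with library as a block over 10 pairs, and the group effect between classes over 3 pairs. DESeq2 1.42.0 and limma 3.58.1 (voom), other scalings, filters, gates, free RNA subtraction and leaving out each OE-MLKL library were alternatives. The scripts of these fits were tested on simulated data. All 8 members were named in every class, with, from each list, up to 3 genes of smallest p per class (a few are given here) and any gene called, and the 3 genes most like each member among genes of at least 10 CPM. Binomial intervals are exact at 95% and cover counting error only.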

Additional observations from a re-analysis of the deposited data

How the results depend on the processing

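No paired analysis was possible because neither the labels nor the study's methods pair tumours of the groups. Of 260 values of members under alternatives, over 20 pairs of gene and class above free RNA, 244 kept their direction and side of the threshold, 14 kept their direction and newly passed, and 2 turned. Both were Il1r1 in cancer cells (log2 −0.04), at 0.083 with library size alone and from −0.089 to 0.055 leaving one OE-MLKL library out, positive without OE-MLKL replicate 1. Il13 in T cells missed the threshold with limma-voom alone. The count of genes called was far less stable. In cancer cells (1 called) it was 0 with library size alone, limma-voom, mixed cells kept or free RNA subtracted, 106 with DESeq2, and 44 to 141 leaving out one OE-MLKL library. In macrophages (1 called) it was 0 with library size alone, a mean of 20 UMIs required, limma-voom, at least 1000 UMIs per cell, mixed cells kept or free RNA subtracted, 2 with the stricter gate, 16 with no filter, 70 with DESeq2, and 0 to 580 leaving one out. In neutrophils (0 called) it was 3 with at least 1000 UMIs per cell or the stricter gate, 59 with no filter, 89 with DESeq2, and 0 to 1449. In T cells (1 called) it was 0 with limma-voom, 5 with free RNA subtracted, 12 with DESeq2, 136 with no filter, and 33 to 868. In dendritic cells (2 called) it was 0 with a mean of 20 UMIs required or limma-voom, 5 with free RNA subtracted, 14 with the stricter gate, 30 with no filter, and 15 to 144. The differences of the group effect between classes (41 calls over 3 pairs) gave 27 with library size alone, an alternative chosen after seeing the data, 124 with free RNA subtracted, 802 with no filter, and 0 to 1935. The highest counts came without OE-MLKL replicate 3, and the cause was not tested. Differences between classes (82584 calls over 10 pairs) gave 69816 to 81363 leaving one out. The neutrophil share of Il1rn, OE-MLKL minus OE-Vector, was −22.7 points, −35.1 unthinned, −31.3 thinned to 1000 UMIs and −24.5 to −21.6 leaving one out, which for the shares was also chosen after seeing the data. That of Il1a was −2.96 points, −6.57 unthinned, −5.81 thinned to 1000 and −3.25 to −2.77. That of Il1r2 was 19.8 points, 12.7 unthinned and 17.9 to 23.3, and that of Il1b −4.27 points, −3.84 unthinned, −1.63 thinned to 1000 and −7.17 to −2.62. Depth limits Il1a, Il1r1, Il1rap, Il1rl1 and Il33, which have fewer than 100 UMIs in many sums. It also limits Il1rn in the T cells of OE-MLKL 1 to 3 (6, 14 and 45 UMIs). The same holds for Il1rn in the dendritic cells of OE-Vector 1 (70 UMIs) and OE-MLKL 1 to 3 (2, 7 and 29 UMIs).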
